A study of Rattus norvegicus with 12 samples.

Results

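The 10 genes described here encode apolipoproteins, the protein components of plasma lipoprotein particles: Apoa1, Apoa2, Apoa4, Apoa5, Apob, Apoc1, Apoc2, Apoc3, Apoe and Apom. They were chosen by name, as the probe sets whose only gene symbol in the array's annotation is one of these 10. They are 10 of the 14217 genes that have such a single-symbol probe set, and their signal was followed in 12 rat livers. A probe set is a group of short probes aimed at one transcript. The study, titled as one of wakame-containing diets and hepatic gene expression, measured liver RNA on an Affymetrix rat array with 1 array per rat. All rats were male Sprague Dawley rats, 9 weeks old when the livers were taken, and all ate a purified AIN-93G diet with 7% fat and 20% casein for 28 days. The 3 groups of 4 arrays were rats on this diet alone (control), rats on the diet with 0.1% powder of wakame, an edible brown seaweed, and rats on the diet with 1% wakame powder. Each diet was fed to 6 rats, with 3 rats sharing a cage, and effects of diet and of cage cannot be told apart.

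The liver and the small intestine make most of the body's lipoproteins. Apob is the structural protein of very low density lipoprotein, which carries triglyceride out of the liver, while Apoa1 and Apoa2 are the main proteins of high density lipoprotein. The smaller, exchangeable apolipoproteins move between particles and set how fast triglyceride is cleared: Apoc2 activates lipoprotein lipase, Apoc3 and Apoc1 slow clearance, Apoa5 promotes it, and Apoe is the ligand by which remnants are taken up by the liver. In the RefSeq rat assembly GRCr8, Apoa1, Apoc3, Apoa4 and Apoa5 lie next to each other on chromosome 8, and Apoc2, Apoc4, Apoc1 and Apoe lie next to each other on chromosome 1. Apoa2, Apob and Apom lie apart from these groups and from each other, on chromosomes 13, 6 and 20.

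Promoter windows are shown for Apoa5, the one member whose signal in the 0.1% diet lay wholly outside that of control, and for Apoe, Apoc1 and Apoc2, neighbours whose signals were positively correlated among livers, though no pair passed adjustment. Each window holds 250 bases before and 50 bases after a transcription start listed by RefSeq in GRCr8, and is read 5′ to 3′ on the gene's strand. The table held windows for 6 of the 10 members. For genes with several listed starts, the window with the most motif matches is shown, and the first listed of a tie. Capitals mark matches, on either strand, to 4 motifs: TATAA (TATA box), AGGTCA (a nuclear receptor hexamer), CACGTG (an E-box) and GGGCGG (a GC box, which reads CCGCCC on the opposite strand). None of the matches shown overlap each other. The windows are chr8:55457621-55457920 on the plus strand for Apoa5, and chr1:88484650-88484949, chr1:88478256-88478555 and chr1:88462316-88462615, all on the minus strand, for Apoe, Apoc1 and Apoc2.
Apoa5: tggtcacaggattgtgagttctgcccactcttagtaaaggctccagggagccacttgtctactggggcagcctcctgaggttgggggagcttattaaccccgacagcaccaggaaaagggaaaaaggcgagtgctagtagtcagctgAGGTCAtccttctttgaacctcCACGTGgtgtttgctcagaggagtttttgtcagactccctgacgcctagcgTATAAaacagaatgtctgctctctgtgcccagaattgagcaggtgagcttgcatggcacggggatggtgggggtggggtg
Apoe: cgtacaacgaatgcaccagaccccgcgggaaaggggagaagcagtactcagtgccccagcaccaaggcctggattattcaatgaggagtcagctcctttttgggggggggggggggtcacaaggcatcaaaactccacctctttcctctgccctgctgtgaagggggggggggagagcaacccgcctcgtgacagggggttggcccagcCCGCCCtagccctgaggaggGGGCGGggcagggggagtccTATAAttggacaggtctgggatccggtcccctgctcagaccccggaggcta
Apoc1: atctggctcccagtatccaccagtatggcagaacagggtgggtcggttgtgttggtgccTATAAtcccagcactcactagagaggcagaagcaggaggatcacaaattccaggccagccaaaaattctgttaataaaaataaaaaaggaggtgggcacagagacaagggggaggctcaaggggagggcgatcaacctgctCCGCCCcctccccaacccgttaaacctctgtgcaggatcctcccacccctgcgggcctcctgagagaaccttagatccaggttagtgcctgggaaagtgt
Apoc2: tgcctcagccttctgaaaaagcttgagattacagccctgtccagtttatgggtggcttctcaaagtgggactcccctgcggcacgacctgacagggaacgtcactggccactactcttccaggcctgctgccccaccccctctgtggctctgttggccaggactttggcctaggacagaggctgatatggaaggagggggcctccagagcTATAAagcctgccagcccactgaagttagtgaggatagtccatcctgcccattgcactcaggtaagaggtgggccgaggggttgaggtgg

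Distances are given to the first base of each match as printed. The Apoa5 window held TATAA 30 bases before the start, CACGTG 81 bases before it and AGGTCA 103 bases before it. The Apoc2 window held TATAA 40 bases before the start and no other match. In the Apoe window, GGGCGG lay 41 and 21 bases before the start, and TATAA began 1 base before it and so ran across the start. A tied Apoe window of a later listed start held the same motifs 220, 200 and 180 bases before that start. In the Apoc1 window, GGGCGG lay 50 bases before the start and TATAA 191 bases before it. Among all 33469 windows of the same length in the table, 26.2% held TATAA, 16.2% AGGTCA, 6.42% CACGTG and 33.1% GGGCGG. Those windows were not selected for matches, unlike the ones shown for genes with several starts. These letters are descriptions of the sequence and were not tested as binding sites.

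Of the 31042 probe sets on the array other than the manufacturer's controls, 27802 (89.6%) had a standard deviation (SD) of at most 0.01 log2 over the 12 livers. These are called flat and count as unmeasured, because it is not known how such values were made. The other 3240 varied. On the varying probe sets, arrays of the same diet correlated with each other at 0.911 or more, and no 2 arrays held identical values. All 9 hepatocyte, all 9 Kupffer cell and all 7 endothelial markers on the array lay above the array median of 6.59 log2, as did 9 of 10 stellate cell, 2 of 3 erythroid, 2 of 5 cholangiocyte and 2 of 7 intestinal markers. Summed hepatocyte marker signal, on the linear scale, was 107561 to 110003 in control, 109958 to 120312 in the 0.1% diet and 108336 to 114939 in the 1% diet. The sums given here include flat markers, which add a nearly constant amount on every array. Only 4 of the 9 hepatocyte markers varied, and the brightest lay at 14.61 log2, the highest value of the table. The hepatocyte sum was therefore not taken as a measure of the share of hepatocytes. Summed intestinal marker signal was 652.4 to 1141 in control, 614.0 to 2009 in the 0.1% diet and 608.8 to 3028 in the 1% diet. Of these markers only Cdh17 (SD 2.07 log2) and Fabp2 (SD 0.29 log2) varied, so this range is mostly that of Cdh17. It was not taken as a measure of intestinal tissue. Summed erythroid signal was 2074 to 3953 in control, 2504 to 7108 in the 0.1% diet and 1744 to 6203 in the 1% diet. Of the markers, 4 hepatocyte, 6 Kupffer cell, 5 stellate cell, 3 endothelial, 2 intestinal and 2 erythroid ones varied and 0 of these passed in any comparison. None of the 5 cholangiocyte markers varied, so that list could not be tested. The part of these cells in the values below was not tested.

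The 10 genes were covered by 12 probe sets. Each gene had 1 varying probe set, and all values below come from it. The other 2 were flat: a second Apob probe set read 6.99 log2 and a second Apoe probe set 5.84 log2 on every array, so these say nothing about diet. The varying Apob probe set lay only just inside the limit, with an SD of 0.0105 log2. Several signals were near the top of the table, whose highest value was 14.61 log2 on every array. The mean over 12 livers was 13.98 for Apoc3 and 13.86 for Apoe. The members varied less among livers than most of what was measured. Their SD over the 12 livers had a median of 0.0856 log2 and ran from 0.0105 for Apob to 0.289 for Apoa4, against a median of 0.220 for all 3240 varying probe sets and 0.126 for the 189 of these with a mean above 12 log2. Apoa4, Apom, Apoa5 and Apoa1, with SDs of 0.289, 0.274, 0.201 and 0.188, made up the more variable part of the family. Those of Apoa5 and Apoa1 were still below the median of all varying probe sets. The other 6 stayed below 0.1 log2. This split follows signal level: the 4 had the lowest means of the members, 11.19 to 12.92 log2, and the other 6 means of 13.00 or more. The part of signal level in the spread was not tested.

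**Figure D1:**
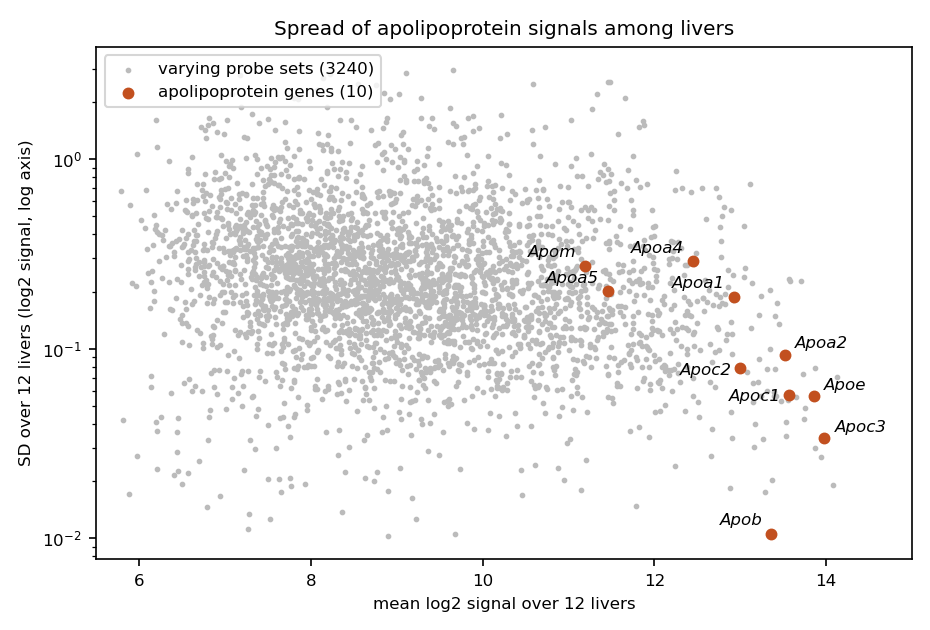
Mean log2 signal over 12 livers (x axis) against the SD over the same livers (y axis, log scale) for the 3240 varying probe sets (grey) and the 10 apolipoprotein genes (orange). Apob, Apoc3, Apoe, Apoc1, Apoc2 and Apoa2 lie at high signal with an SD below 0.1, while Apoa4, Apom, Apoa5 and Apoa1 lie at 0.188 to 0.289.

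No apolipoprotein gene changed between diets by the test used throughout, an adjusted p under 0.05 in a limma fit of all 3240 varying probe sets. In the comparison of the 1% diet with control, 0 of 10 members passed, against 1.67% of all varying probe sets (54 of 3240). In the comparison of the 0.1% diet with control, 0 of 10 passed, against 0.0617% of all (2 of 3240), and in that of the 1% with the 0.1% diet 0 of 10 passed, against 0% of all. At an unadjusted p under 0.05 in limma, 0 of 10 passed in the 1% diet against control (18.5% of all varying probe sets), 1 of 10 in the 0.1% diet against control (11.5% of all) and 1 of 10 in the 1% diet against the 0.1% diet (6.76% of all). That gene was Apoa5 both times. Separation of the diets gave the same picture: the values of the 2 diets did not overlap for 0 of 10 members in the 1% diet against control (11.3% of all), for 1 of 10, Apoa5, in the 0.1% diet against control (5.86% of all) and for 0 of 10 in the 1% diet against the 0.1% diet (3.77% of all).

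**Figure D2:**
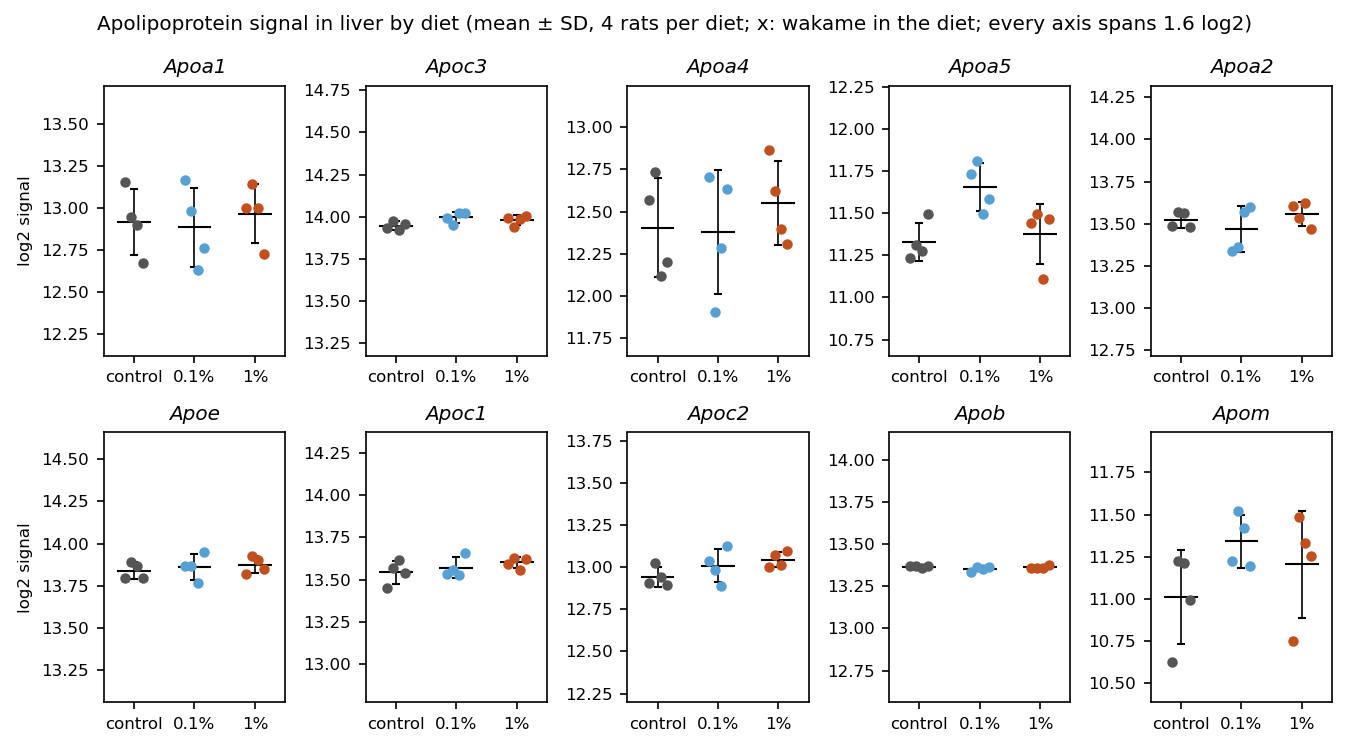
Log2 signal of each apolipoprotein gene in each of the 12 livers, by diet (control, 0.1% and 1% wakame), with the mean (long bar) and SD (error bar) of 4 rats. Every axis spans 1.6 log2, so the wide scatter of Apoa1, Apoa4, Apoa5 and Apom and the narrow scatter of the other 6 genes can be compared by eye.

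Among the genes of the chromosome 8 group, Apoa5, which promotes the clearance of triglyceride-rich particles, was highest in the 0.1% diet. Its log2 signal in rats 1 to 4 was 11.23, 11.31, 11.27 and 11.49 in control, 11.73, 11.81, 11.49 and 11.58 in the 0.1% diet, and 11.44, 11.49, 11.11 and 11.47 in the 1% diet. All 4 rats of the 0.1% diet lay above all 4 controls, but the lowest of them and the highest control were both at 11.49 at 2 decimals, and the 1% diet overlapped both other diets. The mean was 11.65 ± 0.14 in the 0.1% diet and 11.33 ± 0.11 in control (SD, n = 4 each), a difference of 0.33 ± 0.10 log2 (SE; 95% interval 0.10 to 0.55) or a 1.25-fold ratio. It did not pass after adjustment (unadjusted p = 0.00871 and adjusted p = 0.231 by limma). In the 1% diet the mean was 11.38 ± 0.18 and differed from control by 0.05 ± 0.10 (adjusted p = 0.865). The 1% diet lay below the 0.1% diet by a difference of -0.28 ± 0.10 (95% interval -0.50 to -0.05, unadjusted p = 0.0205 and adjusted p = 0.646 by limma), with 0 of 4 rats above the mean of the 0.1% diet. Of the 9 hepatocyte markers on the array, 4 varied, and their median difference was 0.41 log2 in the 0.1% diet against control, with 3 of 4 above 0. It was -0.14 in the 1% against the 0.1% diet, with 0 of 4 above 0. In each of these comparisons 1 of 4 had an unadjusted p under 0.05 by limma. All 6 varying Kupffer cell markers were above 0 in the 0.1% diet against control as well (median 0.09), and 1 of 6 in the 1% against the 0.1% diet (median -0.04). Endothelial and erythroid medians were 0.08 and 0.28 in the 0.1% diet against control. They were -0.01 and -0.19 in the 1% against the 0.1% diet. These 4 lists run the same way as the differences of Apoa5. The stellate cell median did not (0.17, then 0.20), nor did the intestinal one (-0.18, then 0.79). Apoa1, Apoa2, Apoa4 and Apob had negative differences in the 0.1% diet against control. The part of these cells in the differences of Apoa5 was not tested. As in any bulk tissue, a lower share of hepatocytes and less RNA per hepatocyte cannot be told apart.

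Apoa4, an apolipoprotein of intestine and liver found on chylomicrons and high density lipoprotein, varied most of all members. Its log2 signal was 12.57, 12.73, 12.12 and 12.20 in control rats 1 to 4, 12.70, 11.90, 12.28 and 12.63 in the 0.1% diet and 12.86, 12.62, 12.40 and 12.31 in the 1% diet. Each diet held both high and low livers, and the 3 diets overlapped. The spread within a diet, an SD of 0.29 in control, 0.37 in the 0.1% diet and 0.25 in the 1% diet, exceeded every difference between diets. The 1% diet differed from control by 0.14 ± 0.20 log2 (95% interval -0.31 to 0.59, adjusted p = 0.772).

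Apoa1, the main protein of high density lipoprotein, likewise scattered within each diet. It read 13.15, 12.95, 12.90 and 12.67 in control, 13.16, 12.98, 12.63 and 12.76 in the 0.1% diet and 13.00, 13.14, 13.00 and 12.72 in the 1% diet. The ranges of the 3 diets were almost the same, and the difference of 0.05 ± 0.14 log2 between the 1% diet and control (95% interval -0.25 to 0.35, adjusted p = 0.910) was smaller than its error. The deposited signal of Apoc3, an inhibitor of lipoprotein lipase and of remnant uptake, was nearly constant, with an SD of 0.0335 log2. It lay near the top of the table, and its narrow range was not taken as a measure of Apoc3 RNA. Apoc3 read 13.94, 13.98, 13.92 and 13.96 in control, 13.99, 13.95, 14.02 and 14.02 in the 0.1% diet and 13.99, 13.94, 13.99 and 14.00 in the 1% diet. The 4 values of the 0.1% diet all lay above the control mean but overlapped the control values, with a difference of 0.05 ± 0.03 (unadjusted p = 0.0818 and adjusted p = 0.519 by limma). The 1% diet differed from control by 0.03 ± 0.03 (adjusted p = 0.526).

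Of the chromosome 1 group, Apoc2, Apoc1 and Apoe differed between diets by 0.10 log2 or less. Apoc2, the activator of lipoprotein lipase, came closest to separating. Its log2 signal was 12.91, 13.02, 12.94 and 12.90 in control, 13.04, 12.98, 12.89 and 13.12 in the 0.1% diet and 13.00, 13.07, 13.01 and 13.09 in the 1% diet. All 4 rats of the 1% diet lay above the control mean, and control rat 2 overlapped them. The mean was 13.05 ± 0.04 in the 1% diet and 12.94 ± 0.06 in control (SD, n = 4 each). The difference was 0.10 ± 0.05 log2, a 1.07-fold ratio (95% interval of the log2 difference -0.01 to 0.22, unadjusted p = 0.0707 and adjusted p = 0.311 by limma).

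Apoc1, which slows the uptake of remnants and inhibits the cholesteryl ester transfer protein in species that have it, read 13.45, 13.57, 13.62 and 13.54 in control, 13.54, 13.56, 13.53 and 13.66 in the 0.1% diet and 13.59, 13.63, 13.56 and 13.62 in the 1% diet. The diets overlapped, although all 4 rats of the 1% diet were above the control mean (difference 0.06 ± 0.04, adjusted p = 0.492). Apoe, the ligand of the low density lipoprotein receptor on remnants, read 13.79, 13.89, 13.87 and 13.80 in control, 13.87, 13.86, 13.77 and 13.95 in the 0.1% diet and 13.82, 13.93, 13.90 and 13.85 in the 1% diet. Its 3 diets overlapped widely, with a difference of 0.04 ± 0.04 between the 1% diet and control (95% interval -0.06 to 0.13, adjusted p = 0.716). That interval bounds the ratio of the deposited Apoe signals at 0.960-fold to 1.10-fold. It holds for the deposited values only.

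Of the genes that lie alone, Apom, which carries sphingosine-1-phosphate on high density lipoprotein, had, with Apoa5, the widest differences. It read 10.63, 11.22, 11.21 and 10.99 in control, 11.23, 11.52, 11.42 and 11.19 in the 0.1% diet and 10.75, 11.49, 11.33 and 11.26 in the 1% diet. Rat 1 was the lowest in both control and the 1% diet, and each diet with wakame overlapped control. The mean was 11.34 ± 0.16 in the 0.1% diet and 11.01 ± 0.28 in control (SD, n = 4 each), with a difference of 0.33 ± 0.17 log2 or 1.25-fold (95% interval -0.06 to 0.71, unadjusted p = 0.0870 and adjusted p = 0.526 by limma). The 1% diet differed from control by 0.19 ± 0.17 (adjusted p = 0.591). Both differences depend on single livers. Without control rat 1, that of the 0.1% diet from control was 0.20 and that of the 1% diet from control 0.06, while the difference of the 1% diet from control was 0.34 without rat 1 of the 1% diet and 0.10 without its rat 2. The hepatocyte marker median of the 0.1% diet against control, given above for Apoa5, was positive as well. In that comparison 6 of 10 members were positive. Apoa1, Apoa2, Apoa4 and Apob were negative, at -0.03, -0.06, -0.02 and -0.01 log2. The part of hepatocyte share in these differences was not tested.

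Apoa2, the other main protein of high density lipoprotein, read 13.49, 13.57, 13.56 and 13.48 in control, 13.34, 13.36, 13.57 and 13.60 in the 0.1% diet and 13.60, 13.53, 13.63 and 13.47 in the 1% diet. Rats 1 and 2 of the 0.1% diet lay below all other livers, and the other 10 livers were within 13.47 to 13.63. The 1% diet differed from control by 0.03 ± 0.06 and the 0.1% diet by -0.06 ± 0.06 (adjusted p = 0.851 and 0.807). Apob held to 13.34 to 13.37 log2 in all 12 livers, a range of 0.0366. Its difference between the 1% diet and control was -0.00364 ± 0.0219 (95% interval -0.0521 to 0.0448, adjusted p = 0.960). With its SD at the edge of the flat values, this narrow range describes the deposited values and was not taken as a measure of Apob RNA.

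**Figure D3:**
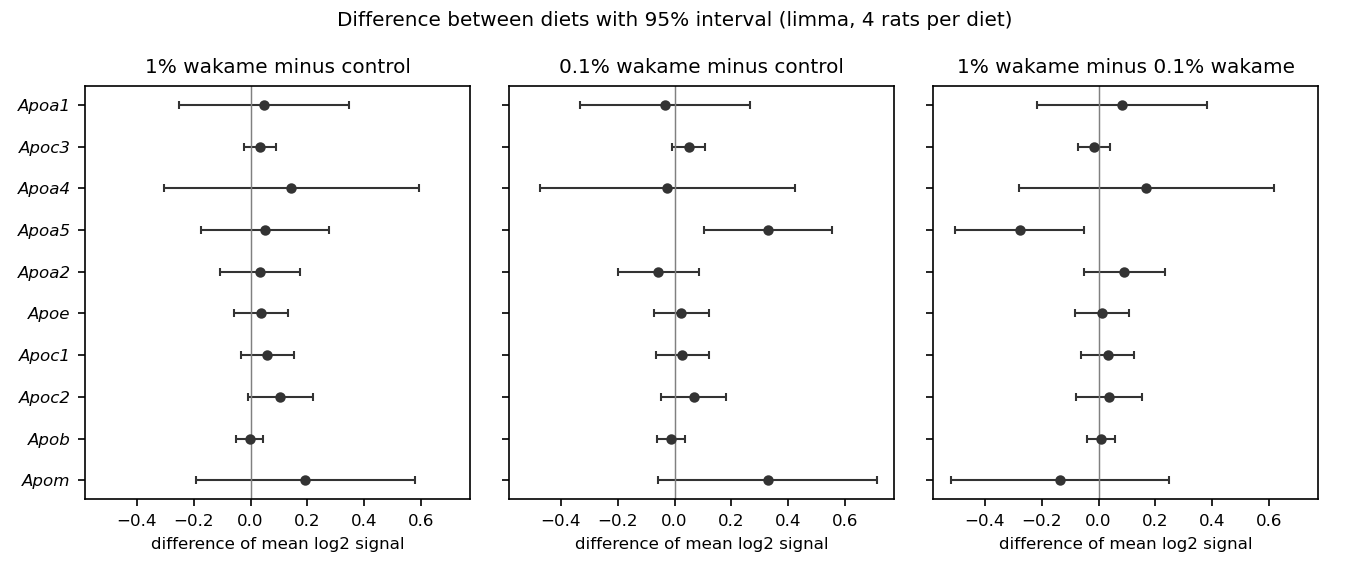
Difference of mean log2 signal (x axis) with its 95% interval for each apolipoprotein gene (rows) in 3 comparisons: 1% wakame minus control, 0.1% wakame minus control and 1% minus 0.1% wakame. The intervals of Apoa5 lie off 0 in the 0.1% minus control and 1% minus 0.1% panels, at 0.10 to 0.55 and -0.50 to -0.05, and all other intervals cross 0.

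By direction alone, 9 of 10 members had a positive difference in the 1% diet against control, where 44.9% of all varying probe sets did. The exception was Apob. In the 0.1% diet against control, 6 of 10 were positive (44.1% of all), and in the 1% diet against the 0.1% diet 7 of 10 (49% of all). The median difference over the members was 0.05 log2 in the 1% diet against control and -0.02 over all varying probe sets. It was 0.03 and -0.02 in the 0.1% diet against control, and 0.02 and -0.00375 in the 1% against the 0.1% diet. The 2 comparisons with control share the control livers. These medians are smaller than the SE of most members and were not tested.

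How the members vary from rat to rat was examined on deviations from each diet's mean, a comparison added after the data had been seen. Apoc4, the remaining gene of the chromosome 1 group and a minor apolipoprotein of triglyceride-rich particles, was included, which gave 55 pairs of genes over 12 livers. Within the Apoe, Apoc1, Apoc4 and Apoc2 group, all 6 pairs had a positive Pearson r, from 0.62 to 0.82 with a median of 0.66. Without the 2 livers farthest from the median, these 6 ran from 0.41 to 0.59. That median is of the deviations of the pair's first gene by name, so the livers left out can differ between pairs. Relative to the mean of other bright probe sets on each array, the 6 ran from 0.53 to 0.79. The same mean is taken from both genes there, which can by itself raise r. Single livers weighed on these pairs. Apoc1 and Apoc4 had r = 0.41 without control rat 1, against 0.67 with it. Without rat 3 of the 0.1% diet, Apoc2 and Apoc4 had r = 0.38, against 0.62 with it, and Apoc4 and Apoe 0.46, against 0.67. Without rat 4 of the 0.1% diet, Apoc1 and Apoc2 had r = 0.44, against 0.66 with it, and Apoc1 and Apoe 0.47, against 0.65. Within the Apoa1, Apoc3, Apoa4 and Apoa5 group, the 6 pairs ran from -0.58 to 0.40 with a median of -0.02. The 43 pairs of genes from different places had a median of 0.05. After Benjamini-Hochberg adjustment over the 55 pairs, 0 passed by an exact two-sided test over the 13824 reorderings of livers within diets, and 3 had an unadjusted p under 0.05.

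The highest pair was Apoc2 and Apoe, with Pearson's r = 0.82 (exact permutation p = 0.0108, adjusted p = 0.593) and Spearman's rho = 0.82 (exact permutation p = 0.00774, adjusted p = 0.426). Both genes lay well above their diet mean in rat 4 of the 0.1% diet and well below it in rat 3 of that diet. Without the 2 livers farthest from the median for Apoc2, r was 0.59, and leaving out any 1 liver gave 0.70 to 0.90. Array-wide differences in bright signals move with these genes to differing degrees: across the 12 livers, the mean of 181 other bright probe sets had r = 0.81 with Apoc1, 0.37 with Apoc2 and 0.37 with Apoe. Taken relative to that mean, Apoc2 and Apoe had r = 0.79, Apoc1 and Apoe 0.53, against 0.65 before, and Apoc1 and Apoc2 0.56, against 0.66 before.

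**Figure D4:**
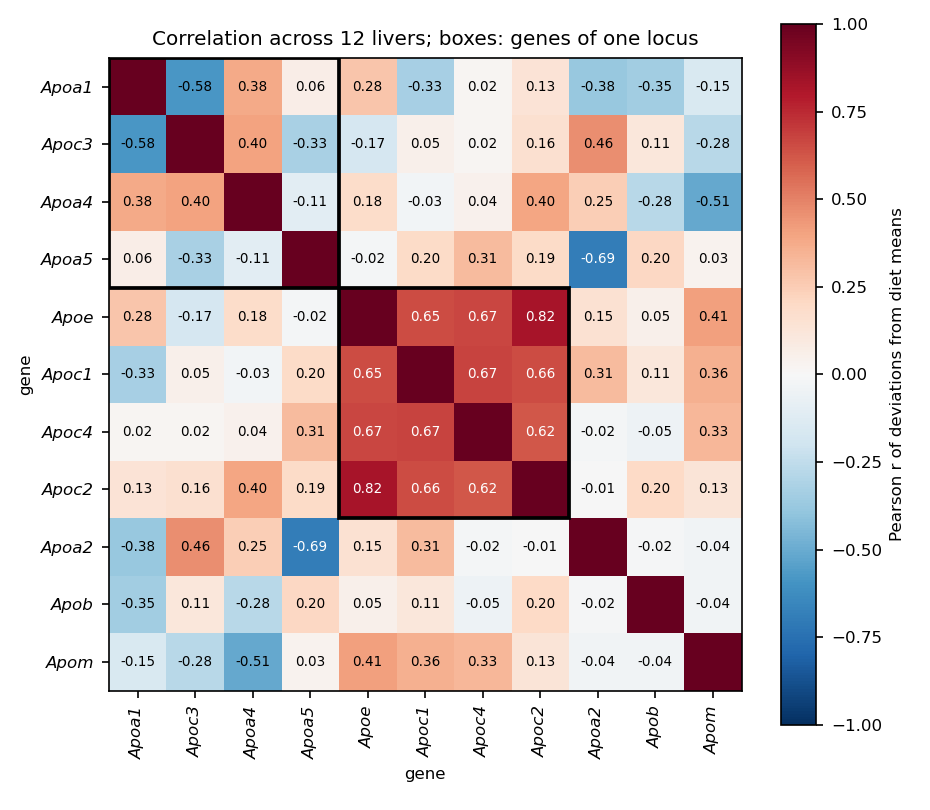
Pearson correlation, across 12 livers, of deviations from the diet mean for each pair of the 10 apolipoprotein genes and Apoc4, as colour and number (both axes list genes). Boxes mark the 2 groups of neighbouring genes: all pairs are positive in the Apoe box, from 0.62 to 0.82, and of mixed sign in the Apoa1 box, from -0.58 to 0.40.

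Opposite deviations were seen as well. Apoa2 and Apoa5 had r = -0.69 (exact permutation p = 0.0385, adjusted p = 0.606) and rho = -0.71 (exact permutation p = 0.0321, adjusted p = 0.685), and r was -0.73 without the 2 livers farthest from the median for Apoa2. Neighbouring Apoa1 and Apoc3 had r = -0.58 (exact permutation p = 0.0877, adjusted p = 0.606), and relative to the bright mean it was -0.06. Taking the same mean from both genes gives them a shared part, and by this step r of Apoa1 and Apob moved from -0.35 to 0.44. Apoa1 itself had r = -0.57 with that mean.

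**Figure D5:**
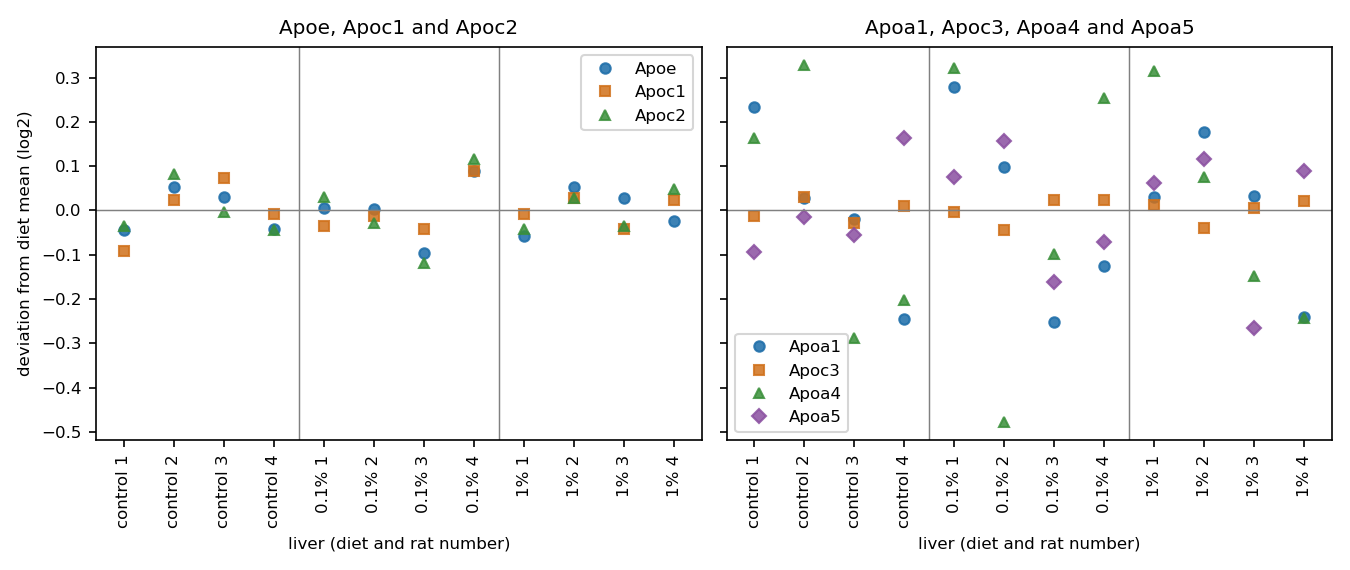
Deviation of log2 signal from the diet mean (y axis) in each of the 12 livers (x axis, by diet and rat number) for Apoe, Apoc1 and Apoc2 (left) and for Apoa1, Apoc3, Apoa4 and Apoa5 (right). The left-hand genes vary little, with SDs of 0.056 to 0.078 over the 12 livers, so they lie close together on the shared y axis. All 3 are high in rat 4 of the 0.1% diet. Apoc4 of the same group is not drawn, and its deviations run from -0.634 to 0.376. On the right, Apoa4 and Apoa1 scatter more widely and Apoc3 stays near 0.

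The varying genes whose pattern over the 12 livers was most like that of Apoa4 were Vnn1, Vwa8 and Hadhb, out of 2300 compared. Vnn1, the pantetheinase vanin-1, had r = 0.92 and rho = 0.92 with Apoa4, and Hadhb, the beta subunit of the mitochondrial trifunctional protein of fatty acid oxidation, had r = 0.83 and rho = 0.78. Vwa8 had r = 0.84 and rho = 0.77. With diet means removed, r was 0.93, 0.91 and 0.85 for Vnn1, Vwa8 and Hadhb, so the likeness was also present among rats on the same diet. These were picked as the highest values and carry no test. Vnn1 ran from 6.52 to 9.04 log2 across livers and did not pass between the 1% diet and control (adjusted p = 0.907).

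The wider lipoprotein pathway was followed in 5 gene lists. Among other apolipoproteins, 5 of 14 genes on the array varied and 0 rose or fell in any comparison. Apoo, a protein of the mitochondrial inner membrane despite its name, averaged 8.03 ± 0.07 in the 1% diet and 8.30 ± 0.19 in control, with a difference of -0.27 ± 0.10 (adjusted p = 0.195). Apoc4 averaged 11.66 ± 0.07 in the 1% diet and 11.32 ± 0.45 in control, a difference of 0.34 ± 0.22 (adjusted p = 0.432). Of 22 genes of particle assembly and secretion on the array, 12 varied and 0 passed in any comparison. Mia3, which helps load large cargo into vesicles leaving the endoplasmic reticulum, differed between the 1% diet and control by 0.26 ± 0.08 (adjusted p = 0.130), and Ces1d, a carboxylesterase that hydrolyses stored triglyceride, by 0.72 ± 0.32 (adjusted p = 0.262). Another varying Mia3 probe set differed by -0.03 (adjusted p = 0.819 by limma).

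Of 18 receptor and uptake genes on the array, 5 varied and 0 passed in any comparison. The remnant receptor Lrp1 differed between the 1% diet and control by 0.17 ± 0.18 (adjusted p = 0.687) and the sorting receptor Sorl1 by 0.16 ± 0.29 (adjusted p = 0.836). Other varying Sorl1 probe sets differed between the 1% diet and control by 0.05, 0.01 and -0.04. On the Sorl1 probe set used, the 0.1% diet was lower than control by a difference of -0.70 ± 0.29 (adjusted p = 0.394). There the 1% diet differed from the 0.1% diet by 0.86 ± 0.29 (unadjusted p = 0.0136 and adjusted p = 0.622 by limma). Of 18 genes of lipases, transfer proteins and plasma remodelling, 10 varied and 0 passed. Pon3, a paraoxonase carried on high density lipoprotein, differed between the 1% diet and control by 0.16 ± 0.07 (adjusted p = 0.243), and Furin, a protease that cleaves lipases and their regulators, by 0.12 ± 0.06 (adjusted p = 0.324). The median difference between the 1% diet and control was 0.02 log2 over the other apolipoproteins, -0.13 over assembly and secretion, 0.04 over receptors and -0.01 over lipases and transfer proteins, against -0.02 over all varying probe sets.

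Of 36 transcription factors and co-regulators of apolipoprotein genes on the array, 19 varied, and 2 rose and 0 fell in the 1% diet against control, where 1.67% of all varying probe sets passed. The list median was 0.26 log2. None of the 19 passed in the other comparisons by limma. An unadjusted p under 0.05 was seen for 9 of 19 in the 1% diet against control (18.5% of all), for 5 of 19 in the 0.1% diet against control (11.5% of all) and for 2 of 19 in the 1% against the 0.1% diet (6.76% of all). Nr1d1, the clock repressor REV-ERB alpha, for which Apoa1 and Apoc3 are known targets, read 6.35, 6.48, 6.91 and 6.31 log2 in control, 7.28, 7.24, 7.78 and 8.60 in the 0.1% diet and 8.47, 9.21, 8.04 and 8.26 in the 1% diet. All livers of both wakame diets lay above all controls. The difference of 1.98 ± 0.33 log2 between the 1% diet and control had an adjusted p of 0.0262 by limma, which stayed under 0.05 in 3 of 8 fits with 1 liver left out (without control rat 3, or without rat 1 or rat 3 of the 1% diet) and was up to 0.0761 in the others.

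Nr5a2, the nuclear receptor LRH-1 that regulates bile acid and cholesterol genes, averaged 9.50 ± 0.15 in the 1% diet and 8.90 ± 0.14 in control on its brightest varying probe set. On this probe set it was higher in the 1% diet by 0.60 ± 0.13 log2 (adjusted p = 0.0486 by limma). All 4 livers of the 1% diet, at 9.40 to 9.71, lay above all 4 controls, at 8.75 to 9.08. The call was lost in all 8 fits that left out 1 liver, with an adjusted p of 0.0678 to 0.129. Another varying Nr5a2 probe set differed between the 1% diet and control by only 0.07 log2 (adjusted p = 0.662 by limma), and a further probe set was flat. In the fit of all probe sets, flat ones included, the adjusted p was 0.258 for Nr5a2 and 0.227 for Nr1d1. Beside the rise of Nr1d1 in the 1% diet, Apoa1 and Apoc3 differed from control by 0.05 ± 0.14 and 0.03 ± 0.03 log2, neither of which passed.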

How the data were processed

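The authors deposited 1 table of log2 values for 12 arrays and 31099 probe sets, 57 of them controls of the manufacturer. That they are on a log2 scale was judged from their range, 3.15 to 14.61. Per the labels' protocols, 100 ng of total RNA was labelled by a method primed at the 3′ end. The submitters' processing notes name R 2.7.2. Not given in the sources used here are the background correction, normalization and summarisation, and how they act on bright signals such as most of these is unknown.

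The deposited values were used without further normalization. Diet means were fitted to the 12 arrays with limma 3.58.1 in R 4.3.3 (empirical Bayes with a variance trend) on the 3240 probe sets with SD above 0.01, with Benjamini-Hochberg adjustment over all of them and a threshold of 0.05. Values after ± are SD for means and SE for differences. Arrays are of separate rats, per the labels, and their number limits the precision. The members, gene lists and tests were chosen with earlier results of these data known. The genes named are all members, the genes of each list that passed, the 2 of each lipoprotein list with the smallest unadjusted p in the 1% diet against control, and the 3 genes most like the most variable member. Alternatives covered the probe-set filter, the variance trend, quantile normalization, the arrays fitted, replicate numbers as a block and leaving out each array. A list gene with several varying probe sets was read from the brightest of them. Beyond this choice, probe sets were not compared with each other in level. Promoter windows came from a RefSeq table of GRCr8.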

Additional observations from a re-analysis of the deposited data

Results flagged for a closer look

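In 2 of 30 groups of 4 livers, 1 liver stood apart from the other 3 by Dixon's test, and chance flags about 1 in 20 groups. Apoa5 read 11.11 log2 in rat 3 of the 1% diet, against 11.44 to 11.49 in the other 3 rats of that diet, a gap of 0.86 of the whole range. Without this rat, the difference of Apoa5 between the 1% and the 0.1% diet was -0.19 log2 (-0.28 with it), and that between the 1% diet and control was 0.14 (0.05 with it), with adjusted p of 0.806 and 0.454 by limma. Apob read 13.37 log2 in rat 4 of the 1% diet, against 13.36 in each of the other 3 rats at 2 decimals, a gap of 0.91 of a range that is itself near the limit for flat values.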

How the results depend on the processing

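The count of members passing was 0 in each comparison under every alternative run. The median difference over the members moved by less than its spread between replicates, 0.0426 log2. That spread is near the main median of 0.0489 in the 1% diet against control. It exceeds the medians of 0.0254 and 0.0220 in the other comparisons, which could change sign within it. The replicate numbers did not pair the livers (same-numbered arrays of 2 diets correlated at -0.115 to 0.0924 in their deviations). With replicate number as a block, 0 members passed in each comparison, and 12, 0 and 0 of all probe sets passed in the 1% diet against control, the 0.1% diet against control and the 1% against the 0.1% diet, against 54, 2 and 0 without it. Over all probe sets, calls in the 1% diet against control were 9 with flat ones included, 28 with only those 2 diets fitted and 7 to 36 with 1 array left out, and with flat ones included they were 5 in the 0.1% diet against control and 6 in the 1% against the 0.1% diet. Of 444 differences of single members under alternatives, 426 kept direction and side of the threshold and 18 reversed, all of them from main differences of at most 0.13 log2 in size. With quantile normalization, Apoc3 in the 1% against the 0.1% diet was 0.00947, against -0.0163. With 1 array left out, Apoa1 ran from -0.0337 to 0.128 log2 in the 1% diet against control, from -0.127 to 0.0502 in the 0.1% diet against control and from -0.00237 to 0.175 in the 1% against the 0.1% diet. In the 0.1% diet against control, Apoa4 ran from -0.132 to 0.135, Apoc1 from -0.0037 to 0.0514 and Apoe from -0.00522 to 0.0564. In the 1% against the 0.1% diet, Apoc2 ran from -0.00266 to 0.0756, Apoe from -0.0197 to 0.0419 and Apom from -0.228 to 0.0166. In the 1% diet against control, Apoa4 ran from 0.0381 to 0.253 and Apoa5 from 0.0113 to 0.139. The difference of Apoa5 between the 0.1% diet and control was 0.27 to 0.38 over 15 alternatives, with an adjusted p of 0.207 to 0.758. With an SD limit of 0.05, Apob and Apoc3 were not tested.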
